A study of Mus musculus with 9 samples.

Results

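The C1q-like proteins (C1ql1 to C1ql4) and the cerebellins (Cbln1 to Cbln4) are 8 secreted proteins that share a globular C1q domain. Their genes were found by symbol among the 55704 genes measured in cultured mouse neural stem cells (NSCs), and all 8 were in the table. They had been selected on these same FPKM values (fragment numbers divided by gene length and by library size), compared across the 3 culture conditions, so their levels and differences are given as a description with no test. The NSCs came from the subventricular zone of adult C57BL/6 mice of 8 to 9 weeks, with 2 females and 2 males pooled in an isolation, and were passaged in bFGF and EGF before plating on poly-L-ornithine and laminin. The bFGF/EGF-treated NSCs, which proliferate, were collected at day 0 with 20 ng/ml of both factors. The bFGF/BMP4-treated NSCs had 20 ng/ml bFGF and 20 ng/ml BMP4 for 6 days, and the BMP4-treated NSCs had 20 ng/ml BMP4 alone for 6 days. Each group had 3 libraries, and no source says that they came from separate isolations, so p-values measure only the spread between these libraries. The day 0 group was the control of both others and differed from them in time in culture as well as in factors, and these cannot be told apart. In bulk RNA, fewer cells of a type and less RNA per cell cannot be told apart either.

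C1ql proteins consist of a collagen-like stretch and the C1q domain, assemble into trimers and larger oligomers, and are released by neurons into the synaptic cleft, where they bind the adhesion G protein-coupled receptor Adgrb3. C1ql1 is best known from climbing fibre synapses on Purkinje cells, and C1ql2 and C1ql3 from mossy fibre synapses of the hippocampus, where they recruit kainate receptors. Cerebellins lack the collagen-like stretch, and Cbln1 links presynaptic neurexins to postsynaptic delta glutamate receptors at parallel fibre synapses of the cerebellum. Cbln2 and Cbln4 act at other synapses, Cbln4 also binds Dcc, and Cbln3 is secreted only as a partner of Cbln1.

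The libraries held 14616324 to 16338906 fragments on genes, as rebuilt from the FPKM values, and log2 levels correlated at 0.95 to 0.964 within groups and 0.81 to 0.915 between them. Of 8 NSC markers, 2 were higher and 1 lower in BMP4-treated than in bFGF/EGF-treated NSCs (median log2 fold change 0.51), near the 21.3% and 15.4% of all genes. In bFGF/BMP4-treated NSCs 1 was higher and 4 lower (median -1.02), beside 16.5% and 14.1% of all genes. Between BMP4 and bFGF/BMP4, 4 were higher and 0 lower (median 1.26), beside 8.41% and 5.14% of all genes. As examples picked with their values in view, Sox2 stood at 121 to 202 FPKM in every library, while Nes fell from 145 to 157 FPKM in bFGF/EGF-treated NSCs to 2.96 to 3.94 in bFGF/BMP4-treated and 10.7 to 20.7 in BMP4-treated NSCs, and Pax6 rose from 1.53 ± 0.23 to 4.80 ± 0.27 and 7.16 ± 0.43 (SD, n = 3). The summed level of 8 astrocyte markers was 225 to 310, 1060 to 1120 and 4160 to 5000 FPKM in the day 0, bFGF/BMP4 and BMP4 groups respectively, with 1 marker at 0 in the bFGF/EGF group. In the same order, 7 ependymal markers summed to 8.97 to 13.3, 11.3 to 12.2 and 59.3 to 71.7 FPKM, 12 neuron and neuroblast markers to 89.1 to 111, 55.5 to 61.5 and 153 to 224, and 11 oligodendrocyte lineage markers to 1560 to 2260, 1320 to 1800 and 243 to 444, with Sox10, a marker of that lineage, at 0 in both BMP4 groups. The higher astrocyte sum in BMP4 than in bFGF/BMP4 came mostly from Gfap (19.4 ± 2.4 to 2566 ± 435 FPKM). Of the 8 astrocyte markers, 4 were higher and 2 lower in that comparison, beside 8.41% and 5.14% of all genes. Against bFGF/EGF, 7 were higher and 1 lower in BMP4 (21.3% and 15.4% of all genes) and likewise in bFGF/BMP4 (16.5% and 14.1%). The higher neuron sum in BMP4 came mostly from Tubb3 (20.3 ± 4.0 to 145 ± 40 FPKM). Of 10 neuron markers tested against bFGF/EGF, 2 were higher and 3 lower there, beside 21.3% and 15.4% of all genes, with a median of -0.57. Microglia markers (7 genes) summed to 0.411 to 0.876, 0.412 to 0.540 and 1.49 to 1.75 FPKM, and vascular and mural markers (7 genes) to 0.107 to 0.160, 0.847 to 1.14 and 1.20 to 1.80. The microglia sum in BMP4 came mostly from Tmem119, at 0 in bFGF/EGF and 1.34 ± 0.13 FPKM in BMP4. P2ry12, the other microglia marker in the fit, fell from 0.562 ± 0.18 to 0.225 ± 0.063 FPKM. These lists differed between the groups, as did the members described below, but not all in the same direction. The part of the lists in the members' levels was not tested.

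The members are close in sequence within each family. C1ql1 shared 77.3% of aligned residues with C1ql3, 75.6% with C1ql4 and 70.0% with C1ql2, against 33.2% to 41.4% between any C1q-like protein and any cerebellin, and Cbln1 and Cbln2 shared 79.8%. The end of the coding sequence, which encodes the C-terminal end of the C1q domain, is shown because it lets the 4 C1ql genes be told apart base by base. The 90 bases up to and including the stop codon are given 5′ to 3′ on the coding strand from GRCm39, with capitals at bases that differ from C1ql1.
C1ql1, chr11:102830559-102830648, minus strand: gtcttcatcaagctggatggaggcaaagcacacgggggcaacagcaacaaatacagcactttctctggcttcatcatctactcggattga
C1ql2, chr1:120270214-120270303, plus strand: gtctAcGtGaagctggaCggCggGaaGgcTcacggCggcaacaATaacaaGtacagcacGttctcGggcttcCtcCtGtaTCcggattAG
C1ql3, chr2:13009076-13009165, minus strand: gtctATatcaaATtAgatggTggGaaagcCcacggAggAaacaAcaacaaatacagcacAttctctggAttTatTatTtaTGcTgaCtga
C1ql4, chr15:98982635-98982724, minus strand: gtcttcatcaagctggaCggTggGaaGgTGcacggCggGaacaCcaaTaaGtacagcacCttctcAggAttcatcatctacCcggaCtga
C1ql2 differed from C1ql1 at 21 of these bases, C1ql3 at 20 and C1ql4 at 16. The longest run of identical bases between the transcripts of C1ql1 and any other C1ql gene was 29, and C1ql2 and C1ql3 shared a run of 38, all far shorter than the sequenced library fragments.

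C1ql1 (ENSMUSG00000045532) lies on the minus strand of chromosome 11 (GRCm39, chr11:102829755-102837610) and encodes 258 residues in 2 coding exons. Its level was 0.599, 0.944 and 0.346 FPKM in the bFGF/EGF libraries, 0.296, 0.487 and 0.0923 in the bFGF/BMP4 libraries, and 200.4, 212 and 180.4 in the BMP4 libraries. These values rest on 9 to 22, 2 to 11, and 4383 to 5063 fragments per library. The 3 BMP4 libraries stood far above the other 6, which overlapped between the day 0 and bFGF/BMP4 groups. Mean levels were 0.630 ± 0.30, 0.292 ± 0.20 and 198 ± 16 FPKM (SD, n = 3 each), a ratio of 314 between BMP4 and bFGF/EGF and of 678 between BMP4 and bFGF/BMP4. Taken library by library, the lowest of these ratios was 191 in the first comparison and 371 in the second. The difference of mean log2(FPKM + 0.1) was 8.16 (SE 0.40) against bFGF/EGF and 9.12 (SE 0.40) against bFGF/BMP4, on a scale that understates the change of low genes.

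By its level, C1ql1 ranked 147 among the 27180 genes above 0 in the BMP4 group, 13319 of 25597 in the bFGF/EGF group and 16124 of 26032 in the bFGF/BMP4 group. Ranked by the difference of mean log2 values among the 20207 genes whose FPKM averaged 0.1 or more, it came second for BMP4 over bFGF/BMP4 and 18th for BMP4 over bFGF/EGF. It made up 97.3% to 98.1% of the summed FPKM of the 8 members in the BMP4 libraries, where the sum was 184 to 218 FPKM. In the other groups the sum was 2.29 to 4.52 and 1.03 to 1.75 FPKM, with 15.1% to 20.9% and 5.5% to 28.8% from C1ql1.

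C1ql3 (ENSMUSG00000049630, chr2:13006580-13016617, minus strand, 255 residues) showed the same order of groups at a lower level. Its level was 0.835, 0.848 and 0.848 FPKM in the bFGF/EGF libraries, 0.172, 0.386 and 0.563 in the bFGF/BMP4 libraries and 3.81, 5.14 and 2.63 in the BMP4 libraries. No library of one group overlapped another group, with BMP4 highest and bFGF/BMP4 lowest. The mean of 3.86 ± 1.3 FPKM in BMP4-treated NSCs (SD, n = 3) was 4.58 times that of bFGF/EGF-treated and 10.3 times that of bFGF/BMP4-treated NSCs. On the log2 scale these differences were 2.02 (SE 0.35) and 3.11 (SE 0.35), and bFGF/BMP4 lay below bFGF/EGF by a log2 difference of -1.09 (SE 0.35). C1ql3 overlaps Pter on the opposite strand over 1687 exonic bases, and Pter, a phosphotriesterase-related gene, stood at 1.52, 2.03 and 4.84 FPKM on average at day 0, with bFGF/BMP4 and with BMP4. It also overlaps the unconfirmed transcripts Gm37824 and Gm37811 on the opposite strand, at no more than 0.304 FPKM. Whether counting used the strand is not stated, so reads of C1ql3 and Pter cannot be told apart in any shared bases that were counted. The FPKM values imply a gene length of 2535 bases for C1ql3, against 4385 annotated exonic bases. Whether that length held the shared bases is not known.

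C1ql2 (ENSMUSG00000036907, chr1:120268300-120270903, plus strand, 287 residues) had its highest mean in bFGF/EGF-treated NSCs. It measured 0.324, 0.569 and 0.0283 FPKM in the bFGF/EGF libraries, 0.0311, 0.0652 and 0.136 in the bFGF/BMP4 libraries and 0, 0 and 0.0910 in the BMP4 libraries. The third bFGF/EGF library, with 1 fragment, lay within the range of the other groups, so all groups overlapped. Genes that reached no more than 3 fragments in any library of a group were taken as not detected in it, as was C1ql2 in BMP4-treated NSCs. Its mean in bFGF/EGF-treated NSCs was at least 3.31-fold higher than this limit of 3 fragments per library allows in the BMP4 group, a bound that covers counting error only.

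C1ql4 (ENSMUSG00000001076, chr15:98981967-98986310, minus strand, 238 residues) was not detected in the bFGF/EGF group (2, 0 and 0 fragments) or the bFGF/BMP4 group (1, 0 and 0 fragments). The BMP4 libraries were at 0.627, 0.0419 and 0.206 FPKM, from 15, 1 and 5 fragments. Their mean was at least 2.26-fold and at least 2.11-fold higher than the limit in the bFGF/EGF and bFGF/BMP4 groups. The second BMP4 library, with 1 fragment, lay within the range of both other groups. All groups thus overlapped, and these bounds cover counting error only. C1ql4 passed the filter on low values only through the BMP4 group, and mostly through its first library. Its log2 differences were 1.38 (SE 0.60) against bFGF/EGF and 1.49 (SE 0.60) against bFGF/BMP4, and 0.78 and 0.89 without that library.

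**Figure D1:**
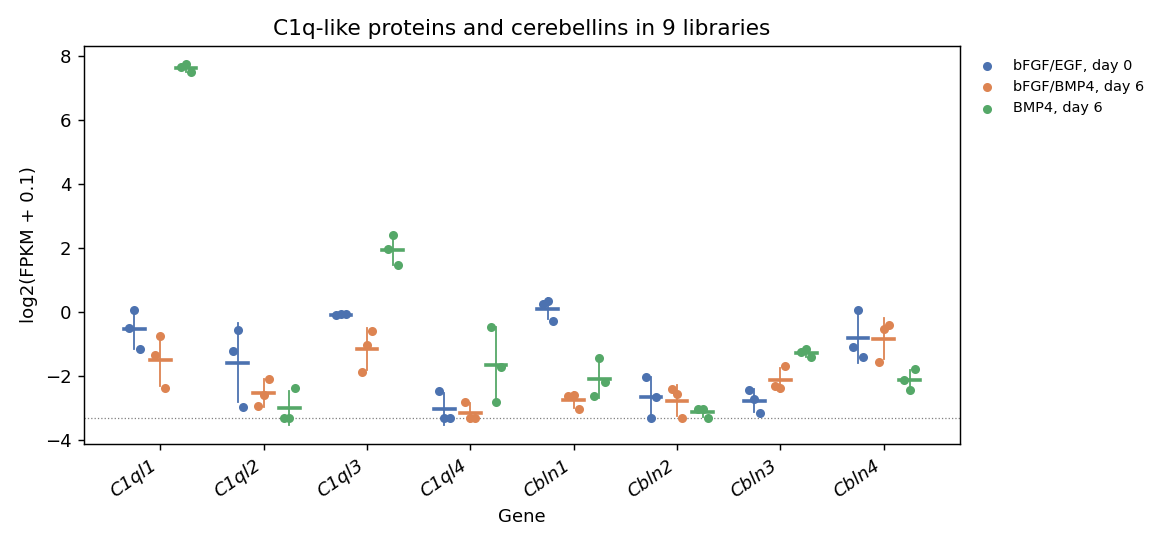
Levels of the 8 members as log2(FPKM + 0.1) on the vertical axis, 1 point per library, with the mean (bar) and SD (line) of each group of 3; the dotted line marks 0 FPKM. C1ql1 in BMP4-treated NSCs stands apart from every other value, C1ql3 is next, and Cbln1 is the highest member in bFGF/EGF-treated NSCs.

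Cbln1 (ENSMUSG00000031654, chr8:88195033-88199261, minus strand, 193 residues), the founding member of the cerebellins, was the most abundant of the 8 in bFGF/EGF-treated NSCs. Its level was 1.08, 1.17 and 0.727 FPKM in those libraries, from 39 to 56 fragments each. It was 0.0615, 0.0644 and 0.0224 FPKM in the bFGF/BMP4 libraries and 0.0608, 0.264 and 0.120 in the BMP4 libraries. All 6 libraries with BMP4 lay below the 3 without it. The mean was 6.69-fold lower in BMP4-treated than in bFGF/EGF-treated NSCs, a log2 difference of -2.20 (SE 0.39). In bFGF/BMP4-treated NSCs it was not detected (3, 3 and 1 fragments) and at least 14.8-fold lower, and the 2 groups with BMP4 overlapped. An antisense partner, the long non-coding RNA Gm19872, was listed at 0 in each library.

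Cbln4 (ENSMUSG00000067578, chr2:171878142-171885460, minus strand, 198 residues) was the most abundant of the 8 in bFGF/BMP4-treated NSCs by its mean. It stood at 0.365, 0.937 and 0.273 FPKM in the bFGF/EGF libraries, 0.236, 0.584 and 0.656 in the bFGF/BMP4 libraries and 0.127, 0.0851 and 0.188 in the BMP4 libraries. The bFGF/EGF and bFGF/BMP4 libraries overlapped, and each BMP4 library lay below all 6 of them. The BMP4 mean was 3.93-fold lower than that of bFGF/EGF and 3.69-fold lower than that of bFGF/BMP4, with log2 differences of -1.30 (SE 0.47) and -1.28 (SE 0.47).

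Cbln3 (ENSMUSG00000040380, chr14:56116370-56121849, minus strand, 197 residues) measured 0.0846, 0.0520 and 0.0116 FPKM in the bFGF/EGF libraries, 0.102, 0.0938 and 0.210 in the bFGF/BMP4 libraries and 0.316, 0.343 and 0.274 in the BMP4 libraries. No library of one group overlapped another group, although the BMP4 values rest on only 22 to 27 fragments. The BMP4 mean was 6.30 times that of bFGF/EGF and 2.30 times that of bFGF/BMP4. Cbln3 shares 28 exonic bases with Khnyn on the opposite strand, which stood at 2.81, 3.12 and 2.45 FPKM. Cbln2 (ENSMUSG00000024647, on chromosome 18, 224 residues) was at 0 to 0.142 FPKM in the bFGF/EGF libraries, 0 to 0.0860 in the bFGF/BMP4 libraries and 0 to 0.0213 in the BMP4 libraries. At 7 or fewer fragments in any library, no order of the groups could be read for it.

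The highest member thus differed between groups by its mean, with Cbln1 in bFGF/EGF, Cbln4 in bFGF/BMP4 and C1ql1 in BMP4. In bFGF/EGF, Cbln1 at 0.992 ± 0.23 FPKM, C1ql3 at 0.844 ± 0.0075, C1ql1 at 0.630 ± 0.30 and Cbln4 at 0.525 ± 0.36 (SD, n = 3) overlapped from one to the next in that order. In bFGF/BMP4, Cbln4 at 0.492 ± 0.22 FPKM, C1ql3 at 0.374 ± 0.20 and C1ql1 at 0.292 ± 0.20 overlapped. In BMP4, C1ql1 and C1ql3 stood clear of each other and of the rest, and Cbln3, C1ql4, Cbln1 and Cbln4 followed at means of 0.311 to 0.133 FPKM.

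A fit over all 20207 genes (limma, adjusted p of at most 0.05 and a fold of at least 2) held 7 of the 8 members, since Cbln2 lay below the filter. Against bFGF/EGF, BMP4-treated NSCs had C1ql1, C1ql3 and Cbln3 past these thresholds as higher and Cbln1 and Cbln4 as lower, where 21.3% of all genes were higher and 15.4% lower. With a pseudocount of 1, Cbln3 (0.32), Cbln1 (-0.79) and Cbln4 (-0.40) all missed the fold threshold in this comparison. The Cbln4 difference of -1.30 also missed the thresholds when the first or second bFGF/EGF library, the second bFGF/BMP4 library or any 1 of the BMP4 libraries was left out, with values of -0.86 to -1.46. It missed them as well with no filter on low values and in the fit of only the groups compared. Between bFGF/BMP4 and bFGF/EGF, no member was past them as higher and C1ql3 and Cbln1 were as lower, beside 16.5% and 14.1% of all genes, and with a pseudocount of 1 both missed the fold threshold (-0.44 and -0.92). The C1ql3 difference of -1.09 also missed the thresholds without any 1 of the bFGF/EGF libraries or without the first or second bFGF/BMP4 library, at -0.73 to -1.15. The fit of only the groups compared likewise left it short of them. Between BMP4 and bFGF/BMP4, C1ql1 and C1ql3 were past them as higher and no member as lower, beside 8.41% and 5.14% of all genes. Differences short of the thresholds passed them in some fits with a library left out, namely C1ql1 in bFGF/BMP4 against bFGF/EGF (-0.96) without the third bFGF/EGF library (-1.27) or the second bFGF/BMP4 library (-1.32), C1ql2 without the third bFGF/EGF library (-2.10 in BMP4 and -1.63 in bFGF/BMP4, against -1.42 and -0.94 with it), C1ql4 without the second BMP4 library (1.96 and 2.07) and Cbln4 in BMP4 against bFGF/BMP4 without the first bFGF/BMP4 library (-1.65). Against bFGF/EGF, limma-voom on rebuilt fragments also put C1ql2 (-2.81) and C1ql4 (2.56) in BMP4 past them, and a replicate block put C1ql4 (1.38) past them. Because the members were chosen on these contrasts, the counts are given without reading anything from them.

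**Figure D2:**
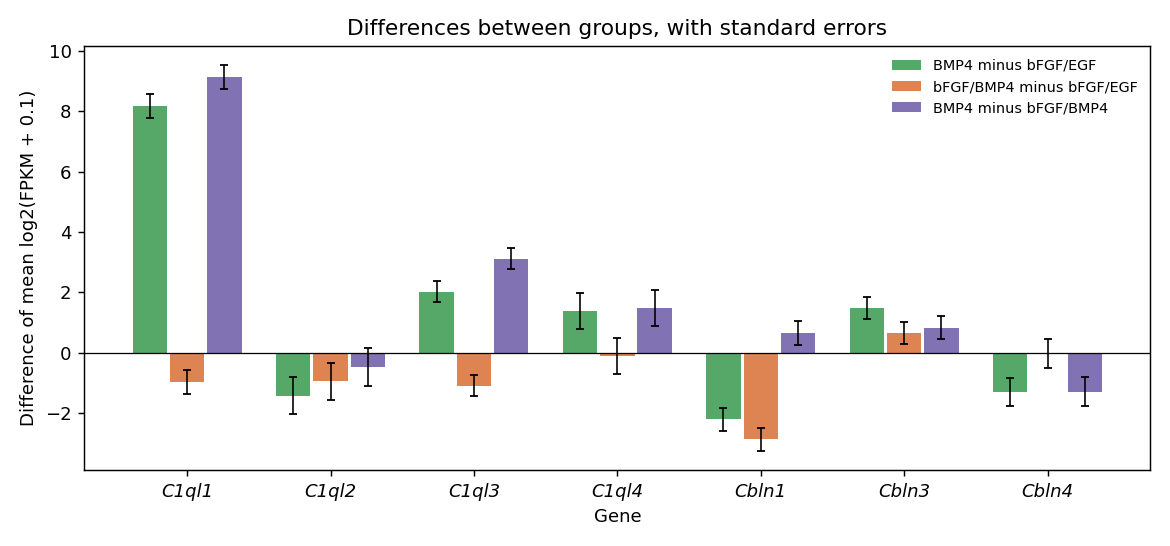
Differences of mean log2(FPKM + 0.1) for the 7 members in the fit, with bars starting at 0 and standard errors, for BMP4 minus bFGF/EGF, bFGF/BMP4 minus bFGF/EGF and BMP4 minus bFGF/BMP4. C1ql1 reaches 8.16 and 9.12 in the comparisons with BMP4 alone, C1ql3 2.02 and 3.11, and Cbln1 goes down to -2.86 in bFGF/BMP4.

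Promoter sequence, the 250 bases before the start of transcription, was found in RefSeq (GRCm38.p6) for 5 members, namely C1ql2, C1ql3, C1ql4, Cbln3 and Cbln4. It was searched on both strands for GGCGCC, the core of the BMP response element bound by Smad proteins, for the Smad binding element GTCTAGAC, and for CCGGAA, the core bound by ETS factors such as Etv4 and Etv5. The C1ql3 and Cbln4 promoters are shown because both hold GGCGCC (in capitals) while their genes had opposite orders of BMP4 and bFGF/EGF. Both are given 5′ to 3′ on the strand of the gene.
C1ql3, chr2:13010865-13011114, minus strand: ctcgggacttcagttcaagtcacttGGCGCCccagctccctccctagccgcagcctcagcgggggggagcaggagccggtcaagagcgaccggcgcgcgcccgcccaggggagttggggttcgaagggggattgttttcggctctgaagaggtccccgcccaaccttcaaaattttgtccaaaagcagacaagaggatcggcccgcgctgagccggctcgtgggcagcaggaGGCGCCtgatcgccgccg
Cbln4, chr2:172043467-172043716, minus strand: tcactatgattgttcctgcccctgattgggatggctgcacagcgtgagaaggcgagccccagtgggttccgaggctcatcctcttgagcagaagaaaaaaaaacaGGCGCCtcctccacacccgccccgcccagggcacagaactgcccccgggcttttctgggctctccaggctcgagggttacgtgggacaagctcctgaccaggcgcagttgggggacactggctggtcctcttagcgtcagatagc
GGCGCC began 225 and 18 bases before the start site in C1ql3 and 145 bases before it in Cbln4. C1ql2 held it once, 123 bases before the start site, and C1ql4 and Cbln3 did not hold it. GTCTAGAC and CCGGAA were in none of the 5. Of 32851 promoters of this length, 9.59% held GGCGCC, 0.167% GTCTAGAC and 12% CCGGAA. Only GGCGCC was found in the members, so no matches of different motifs overlapped.

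The receptors and partners that the C1q-like proteins and cerebellins bind are a list of 12 genes, all of which entered the fit and could be tested. Against bFGF/EGF, 8 of the 12 were higher and 2 lower in bFGF/BMP4-treated NSCs, beside 16.5% and 14.1% of all genes, and 4 were higher and 2 lower in BMP4-treated NSCs, beside 21.3% and 15.4%. BMP4 alone had 5 of them lower than bFGF/BMP4 and none higher (1 was higher at an adjusted p of at most 0.05 with no fold threshold), beside 5.14% and 8.41% of all genes. With 2 of 12, the lower counts against bFGF/EGF lay near the share of all genes. Median log2 fold changes were 1.503, 0.65 and -0.69, where the medians over all genes were 0.06, 0.10 and 0. The summed level of the 12 was 91.7 to 96.4 FPKM in bFGF/EGF, 261 to 316 in bFGF/BMP4 and 119 to 153 in BMP4.

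Adgrb3, the receptor of the C1q-like proteins, had mean levels of 3.31 ± 0.33 FPKM at day 0, 6.54 ± 0.069 with bFGF/BMP4 and 2.86 ± 0.35 with BMP4 (SD, n = 3 each, as for the other partners). Its level fell from bFGF/BMP4 to BMP4 by 1.17 on the log2 scale (SE 0.14, limma adjusted p = 0.00026), a call that was lost with a pseudocount of 1 (-0.97). The BMP4 and bFGF/EGF libraries overlapped for Adgrb3, with a log2 fold change of -0.21 (SE 0.14, limma adjusted p = 0.24). Its log2 fold change of 0.97 for bFGF/BMP4 over bFGF/EGF (limma adjusted p = 0.00031) lay just short of the fold threshold and passed it, at 1.05, without the first bFGF/EGF library.

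Of the neurexins, the presynaptic receptors of cerebellins, Nrxn2 and Nrxn3 had their highest mean in bFGF/BMP4-treated NSCs. Nrxn3 rose from 0.590 ± 0.062 FPKM to 6.95 ± 0.21 and 3.88 ± 0.81, with log2 fold changes of 3.36 (SE 0.18, limma adjusted p = 5.6e-07) and 2.51 (SE 0.18, adjusted p = 2.3e-06) over bFGF/EGF. Nrxn2 was more abundant and rose from 25.01 ± 2.6 to 64.8 ± 8.9 FPKM in bFGF/BMP4 (log2 fold change 1.37, SE 0.14, limma adjusted p = 2.6e-05) and stood at 44.4 ± 4.3 in BMP4. Between BMP4 and bFGF/BMP4, Nrxn2 and Nrxn3 did not reach the fold threshold, with -0.54 and -0.84.

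Grid1, a delta glutamate receptor and a postsynaptic partner of cerebellins, had a higher level with bFGF/BMP4 than at day 0 or with BMP4 alone. It went from 4.86 ± 0.47 to 15.3 ± 0.53 and 6.85 ± 1.1 FPKM, a rise of 1.64 (SE 0.14, limma adjusted p = 8.8e-06) and then a fold change of -1.16 (SE 0.14, adjusted p = 0.00023) between the BMP4 groups. Cbln1, a ligand that bridges these receptor families, was not detected in bFGF/BMP4-treated NSCs (3, 3 and 1 fragments). In that group Nrxn2, Nrxn3 and Grid1 had their highest means, and Cbln4, another cerebellin, stood at 0.492 ± 0.22 FPKM.

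The partners of C1ql2 and C1ql3 did not move together. The kainate receptor subunit Grik2 rose from 1.99 ± 0.28 FPKM to 12.7 ± 1.4 in bFGF/BMP4 and 12.9 ± 1.9 in BMP4, with log2 fold changes of 2.62 and 2.64 (SE 0.15 each, limma adjusted p = 8.8e-07 and 6.1e-07). Grik4, also a kainate receptor subunit, rose in BMP4 over bFGF/EGF, from 1.97 ± 0.47 to 5.96 ± 1.3 FPKM (log2 fold change 1.55, SE 0.23, limma adjusted p = 0.00028), and its changes of 0.76 for bFGF/BMP4 over bFGF/EGF and 0.80 between the BMP4 groups missed the fold threshold. Nptx1, a secreted neuronal pentraxin, measured 18.4, 23.8 and 24.6 FPKM in the bFGF/EGF libraries, 58.5, 66.9 and 119 in the bFGF/BMP4 libraries and 5.49, 2.37 and 3.65 in the BMP4 libraries. Its 3 groups did not overlap, and from bFGF/BMP4 to BMP4 it changed by -4.38 on the log2 scale (SE 0.32, limma adjusted p = 1.4e-05), the largest of the 12 partners in size. Nptx1 thus had the opposite order of the groups to C1ql3. Nptxr, the pentraxin receptor, fell in bFGF/BMP4 from 4.13 ± 0.88 to 1.79 ± 0.20 FPKM (log2 fold change -1.15, SE 0.29, limma adjusted p = 0.0074), and stood at 3.03 ± 1.1 in BMP4, which overlapped both other groups.

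Dcc, the netrin receptor that Cbln4 binds, fell from 2.21 ± 0.47 FPKM to 0.201 ± 0.0093 in bFGF/BMP4 and 0.233 ± 0.091 in BMP4. The log2 fold changes were -2.92 and -2.80 (SE 0.29 each, limma adjusted p = 2.6e-05 and 2.3e-05). Its paralogue Neo1 rose from 16.1 ± 1.5 to 39.6 ± 1.1 and 36.7 ± 6.6 FPKM, by 1.30 and 1.17 on the log2 scale (SE 0.14 each, limma adjusted p = 4.8e-05 and 6.8e-05). For both genes the BMP4 and bFGF/BMP4 libraries overlapped.

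**Figure D3:**
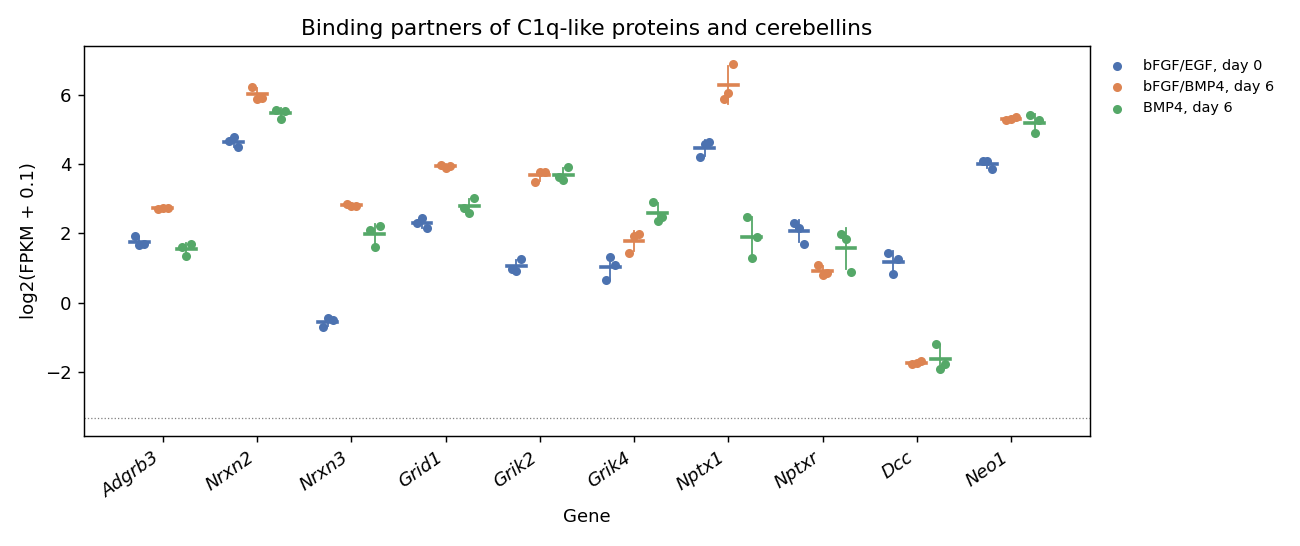
Levels of 10 of the 12 binding partners as log2(FPKM + 0.1) on the vertical axis, 1 point per library, with the mean (bar) and SD (line) of each group of 3; the dotted line marks 0 FPKM. Grid1 and Nptx1 are highest in bFGF/BMP4-treated NSCs, and Dcc is highest in bFGF/EGF-treated NSCs.

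Of 22 other genes with a C1q domain, 10 entered the fit. Against bFGF/EGF, 4 were higher and 1 lower in BMP4-treated NSCs (21.3% and 15.4% of all genes) and 3 were higher and 1 lower in bFGF/BMP4-treated NSCs (16.5% and 14.1% of all genes), and 4 were higher and none lower in BMP4 than in bFGF/BMP4 (none was lower at an adjusted p of at most 0.05 with no fold threshold either), where all genes gave 8.41% and 5.14%. Their median log2 fold changes were 0.73, 0.47 and 0.49. Col8a2 and C1qtnf3, among the 4 higher in both comparisons with BMP4 alone, passed the filter on low values only through the BMP4 group. The 1 lower relative, Emilin2, likewise passed the filter only through the bFGF/EGF group. Mmrn2, among the 3 higher in bFGF/BMP4-treated NSCs, averaged 0.141 FPKM over all libraries, near the filter of 0.1. Nothing is therefore read from these counts. C1qa, C1qb and C1qc, the chains of complement C1q that microglia make, were listed at 0 in all 9 libraries. C1qtnf6, a secreted C1q/TNF-related protein, was the most abundant relative, with 9.46 ± 1.5, 22.0 ± 0.96 and 69.1 ± 8.8 FPKM (SD, n = 3) at day 0, with bFGF/BMP4 and with BMP4. Its log2 fold change was 1.64 (SE 0.14, limma adjusted p = 3.6e-05) for BMP4 over bFGF/BMP4. C1qtnf1 had the same order, at 0.246 ± 0.023, 1.02 ± 0.20 and 5.77 ± 0.71 FPKM, with 2.40 (SE 0.21, limma adjusted p = 3.7e-05) for BMP4 over bFGF/BMP4.

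Col8a2, a short-chain collagen with a C1q domain, was at 0 to 0.0252 FPKM in the bFGF/EGF libraries, 0.0139 to 0.0871 in the bFGF/BMP4 libraries and 3.59, 4.96 and 3.34 in the BMP4 libraries, from 247 to 361 fragments. Its log2 fold change for BMP4 over bFGF/BMP4 was 4.73 (SE 0.32, limma adjusted p = 9.5e-06), a value that depends on the pseudocount. C1qtnf3 was at 0 in the bFGF/EGF libraries, had 1 fragment in all in bFGF/BMP4 and 9 to 17 fragments in the BMP4 libraries, and its call in both comparisons with BMP4 (limma adjusted p = 0.0012 and 0.0049) was lost with a pseudocount of 1. The relative that was lower in both comparisons with bFGF/EGF was Emilin2, an elastin-associated glycoprotein picked with its values in view, at 0.327 ± 0.050, 0.0276 ± 0.014 and 0.0111 ± 0.011 FPKM, and with a pseudocount of 1 both of its calls were lost (-0.39 and -0.37). The third gene that was higher in bFGF/BMP4 than in bFGF/EGF, beside C1qtnf1 and C1qtnf6, was Mmrn2, a multimerin also picked with its values in view, at 0.0243 ± 0.029 and 0.245 ± 0.051 FPKM, and its call was lost with a pseudocount of 1.

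**Figure D4:**
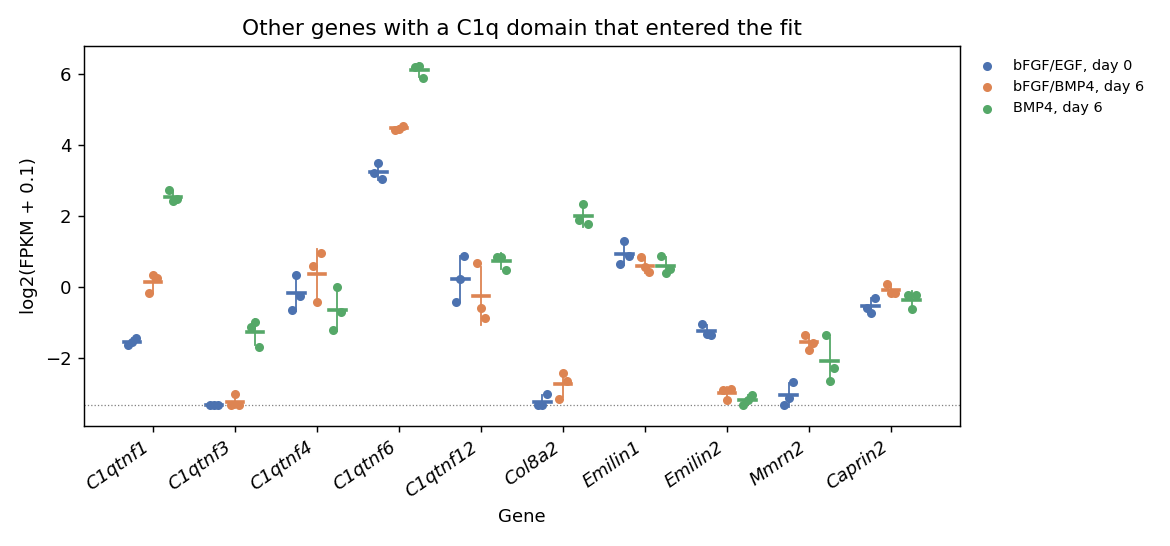
Levels of the 10 other C1q domain genes in the fit as log2(FPKM + 0.1) on the vertical axis, 1 point per library, with the mean (bar) and SD (line) of each group of 3; the dotted line marks 0 FPKM. C1qtnf1, C1qtnf3, C1qtnf6 and Col8a2 are highest in BMP4-treated NSCs.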

How the data were processed

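RNA-seq covered 9 libraries of mouse NSCs. Per the labels and the paper, the authors cleaned paired-end reads with fastp 0.19.7 and aligned them with HISAT2 2.0.5 to mm39, and the submitters' processing notes also name featureCounts 1.5.0-p3; they deposited FPKM values for 55704 genes, and the annotation and strand setting are not given in the sources used here. Of 55414 Ensembl identifiers, 54749 were named by GENCODE vM39 (GRCm39), which also gave positions and coding sequence. Whole fragment numbers were rebuilt from the FPKM values for 30845 of 30860 genes above 0. The gene length implied by the values was 1473 bases for C1ql1, against 1998 annotated exonic bases, which affects levels between genes but not ratios between groups.

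Genes whose FPKM averaged 0.1 or more over the libraries were fitted with limma 3.58.1 (R 4.3.3, trend) on log2(FPKM + 0.1) with all 9 libraries, and called at a Benjamini-Hochberg adjusted p of at most 0.05 over the 20207 genes and a fold of at least 2. This took the place of the count-based test of the paper, because the deposited values are FPKM; the counts given with the paper were not used here. Protein identity was aligned with Biopython 1.88, and Python 3.11.15 with pandas 2.3.3 made the other tables. The detection limit was 3 fragments per library, and it covers counting error only. The method was tested on simulated data, where a set recovery of changes was required only for genes at 1 FPKM or more. Among the members only C1ql1 and C1ql3 averaged that much.

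The members and lists were chosen with earlier results of these data known. The text names the 8 members and 10 of the 12 partners (2 are counted but not reported singly here), the genes called between BMP4 and bFGF/BMP4 among C1q domain relatives (with C1qa, C1qb and C1qc) and other synaptic organizers (at most the 8 with the largest change), and the 3 genes best correlated with C1ql1 and with C1ql3. Other genes, among them single cell type markers, were picked with their values in view. As alternatives, the pseudocount was set to 1, the filter on low values was dropped or raised to 1 FPKM, values were put on the TPM scale or rescaled by median ratios, and the fit was run with a replicate block, with limma-voom on rebuilt fragments, on only the groups compared and without each library in turn. The same alternatives for single genes outside members and partners were added after the data were seen.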

Additional observations from a re-analysis of the deposited data

How the results depend on the processing

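Among the members, the partners and the other single genes followed under the alternatives, no called value changed direction. For the remaining genes only the number called was compared. With a pseudocount of 1 the number of genes called was 4364 against 7400 for BMP4 over bFGF/EGF, 3544 against 6174 for bFGF/BMP4 over bFGF/EGF and 1449 against 2738 for BMP4 over bFGF/BMP4, and under the filter of 1 FPKM it was 1800 in the last. For BMP4 over bFGF/EGF, 3 of the other C1q domain genes were called under either setting against 5, and 17 other synaptic organizers with a pseudocount of 1 against 28. For bFGF/BMP4 over bFGF/EGF, 1 and 2 C1q domain genes were called under these settings against 4. A larger pseudocount shrinks the changes of low genes, and the stricter filter removes such genes. Of 606 values of partners under alternatives, 600 kept their direction and call, 4 newly passed and 2 missed the thresholds; Adgrb3 in bFGF/BMP4 over bFGF/EGF newly passed without bFGF/EGF replicate 1, and Nptxr in bFGF/BMP4 missed with a pseudocount of 1 (-0.87). Of 336 values of the members, 302 moved by less than the spread between libraries and 34 by more. C1ql1 stood at 7.85 to 8.47 over bFGF/EGF and 8.68 to 9.48 over bFGF/BMP4 with each library left out. Kif18b between BMP4 and bFGF/BMP4 lost its call with a pseudocount of 1 and without bFGF/BMP4 replicate 2 or 3 or any 1 of the BMP4 replicates.

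Same-numbered libraries correlated at -0.212 to 0.222 in their deviations from the group means, so the replicate numbers were not taken as pairs. With a replicate block, 7383, 6127 and 2612 genes were called in the order above, and 6, 10 and 5 partners, and the C1ql1 differences stayed at 8.16 and 9.12. Depth limited C1ql2, C1ql4, Cbln1 and Cbln2, each of which stayed within 3 fragments per library in 1 group or more.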

Other observations

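Other secreted or membrane proteins that organize synapses were taken as a list of 46 genes, of which 42 entered the fit. In BMP4-treated NSCs 12 were higher and 16 lower than in bFGF/EGF-treated NSCs, in bFGF/BMP4-treated NSCs 11 were higher and 10 lower, and between BMP4 and bFGF/BMP4 9 were higher and 6 lower. The shares of all genes were 21.3% higher and 15.4% lower, 16.5% and 14.1%, and 8.41% and 5.14% in the same order. The median log2 fold changes were 0.07, -0.003 and -0.26. At an adjusted p of at most 0.05 with no fold threshold, 11 were higher and 13 lower in BMP4 than in bFGF/BMP4. The same rule gave 2474 higher and 1797 lower of the 20207 genes. Of the 8 with the largest change between BMP4 and bFGF/BMP4, 7 were higher in BMP4. They included 3 of the 4 leucine-rich glioma-inactivated proteins, which are secreted ligands of Adam22 family receptors. Lgi4 was listed at 0 at day 0 and stood at 0.196 ± 0.10 FPKM with bFGF/BMP4 and 3.47 ± 0.60 with BMP4 (SD, n = 3), Lgi1 at 0.595 ± 0.23 in BMP4 and at or near 0 in both other groups, and Lgi3 at 0.704 ± 0.13, 0.588 ± 0.14 and 2.75 ± 0.73. The call of Lgi1 between BMP4 and bFGF/BMP4 was lost with a pseudocount of 1 (0.66), and Lgi1 passed the filter on low values only through the BMP4 group. Lgi4 passed this filter mostly through the BMP4 group too. Nothing is therefore read from the counts of 7 of 8 and 3 of 4. The other member, Lgi2, picked with its values in view, went from 1.79 ± 0.19 FPKM to 0.174 ± 0.074 and 0.0718 ± 0.048 (log2 fold changes of -2.81 and -3.50 against bFGF/EGF, limma adjusted p = 8.2e-05 and 1.4e-05). The matricellular gene Sparc went from 51.4 ± 11 through 124 ± 8.2 to 460.2 ± 50.4 FPKM, with a log2 fold change of 1.89 (SE 0.17, limma adjusted p = 4.1e-05) between the BMP4 groups. Thbs1, an astrocyte-secreted thrombospondin, was at 2.23 ± 1.0, 3.39 ± 0.99 and 16.5 ± 3.1 FPKM (2.28, SE 0.32, limma adjusted p = 0.00064). Its relative Thbs2 was at 2.46 ± 0.32, 0.150 ± 0.047 and 0.925 ± 0.032 FPKM, and so lay below its day 0 level with either treatment, and its calls in BMP4 (-1.31 against bFGF/EGF and 2.05 against bFGF/BMP4) were lost with a pseudocount of 1. Ntng2, a netrin-G adhesion protein, rose to 18.2 ± 2.8 FPKM in BMP4 from 4.78 ± 0.28 in bFGF/BMP4 (1.90, SE 0.14, limma adjusted p = 1.6e-05). Clstn2, a calsyntenin, was the 1 of the 8 that was lower in BMP4 (2.50 ± 0.43 FPKM) than in bFGF/BMP4 (8.00 ± 2.0).

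Among the 11516 genes compared, whose FPKM averaged 1 or more, the log2 levels most correlated with those of C1ql1 over the 9 libraries were S100a6, a calcium-binding protein (r = 0.9908), Ppp1r1b, a phosphatase inhibitor (r = 0.9907), and Cyth3, a guanine nucleotide exchange factor (r = 0.9905). For C1ql3 they were Fbxo36 (r = 0.9893), Grsf1, an RNA-binding protein (r = 0.9839), and Col6a1, a collagen chain (r = 0.9802). These values describe 3 clusters of libraries rather than 9 independent points. S100a6 went from 0.614 and 0.646 FPKM in bFGF/EGF and bFGF/BMP4 to 19.6 in BMP4, and Ppp1r1b from 0.678 and 0.473 to 12.1, both far smaller steps than that of C1ql1, while Cyth3 went only from 4.13 and 4.03 to 6.88.

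The genes next to C1ql1 on chromosome 11, looked at after its values were seen, had other patterns. Kif18b, a mitotic kinesin 13.8 kb away, fell from 15.0 ± 6.0 FPKM in bFGF/EGF to 3.4 ± 0.73 in bFGF/BMP4 and 1.6 ± 0.093 in BMP4 (limma adjusted p = 0.00018 and 8.9e-06 against bFGF/EGF). Dcakd, 47.3 kb away on the other side, was at 47.7 ± 8.8, 24.1 ± 4.2 and 62.2 ± 2.9 FPKM, with a log2 fold change of 1.38 (SE 0.16, limma adjusted p = 0.00024) between BMP4 and bFGF/BMP4. Of the 2 genes beside Cbln1, N4bp1 was at 7.35 ± 0.92, 3.99 ± 0.65 and 4.67 ± 1.2 FPKM and was not called. Both genes were picked with their values in view. The other, Zfp423, a zinc finger factor that takes part in BMP signalling and lies 189 kb away, rose from 3.70 ± 0.37 to 46.3 ± 6.0 and 64.8 ± 9.2 FPKM (limma adjusted p = 9.4e-08 and 3.0e-08) while Cbln1 was lower in both BMP4 groups.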
